A study of Mus musculus with 2 samples.

Results

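The interferon response genes described here are 40 mouse genes, taken as a named list of interferon-stimulated genes and of the type I interferon receptor and its signalling proteins, out of 38924 genes measured in pancreatic islets. They were chosen by name, with earlier results from these libraries known, and the rule itself uses no measured value. All 40 were found by symbol, and 39 had 100 or more counts over both libraries; Oas3, with 24 counts in CAST and 38 in B6, did not reach that number. The study measured islet RNA by sequencing in males of a pair of inbred strains at 10 weeks of age, as a companion to a search for protein modifications, whose protein data are not analysed here. The CAST group is CAST/EiJ, inbred from wild-caught mice of the castaneus subspecies, and the B6 group is C57BL/6J, the common laboratory strain whose genome is the mouse reference. Both strains were unmodified and untreated, and both were fed standard chow. Islets of 2 mice per strain were freed with collagenase, purified on a gradient and by hand in buffer with 16.7 mM glucose, pooled, and 250 islets of each pool were used for RNA. Each strain is therefore 1 library from 1 pool, with no replicates, so no difference below has a test, and strain cannot be told apart from pool, handling or library.

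Type I interferons bind the receptor made of Ifnar1 and Ifnar2. The receptor's kinases Jak1 and Tyk2 then activate Stat2, which acts with Irf9 in a complex that binds the interferon-stimulated response element (ISRE) in promoters. Interferon gamma acts through the gamma-activated site (GAS) and through Irf1. The genes that follow make sensors of viral RNA, enzymes that degrade RNA or block translation, and large GTPases that act on viruses and on the vacuoles of intracellular microbes. In islets the pathway is best known from type 1 diabetes, where beta cells carry an interferon signature and where variants of human IFIH1, the orthologue of Ifih1, alter risk.

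The libraries held 104324631 counts in CAST and 76600903 in B6, and 12540 genes in CAST and 12811 in B6 reached 1 TPM, a level scaled by transcript length and library. Both were islets by their markers: all 12 endocrine markers were measured, none differed 2-fold, their median log2 ratio of CAST over B6 was 0.01, and insulin 2 (Ins2) stood at 477729 TPM in CAST and 404421 TPM in B6. The endocrine markers went both ways, with 6 below 0 and 6 above, from -0.90 for Sst to 0.64 for Ppy. Markers of other pancreatic cells differed, since all 12 acinar markers were 2-fold or more higher in CAST, at a summed 24000 scaled CPM, which are counts scaled by library alone, in CAST against 6465 in B6, and 5 of 8 fibroblast markers were higher in CAST, at 166.7 against 84.0 summed scaled CPM in B6. Of the 12 macrophage markers, 11 passed the count minimum and none differed 2-fold, with a median log2 ratio of 0.27 and a summed 114.6 scaled CPM in CAST against 98.2 in B6. Of the 10 lymphocyte markers only Cd79a reached 100 counts, with 639 counts in CAST and 857 in B6, and the natural killer marker Ncr1 had 0 counts in both libraries, which allows up to 3. In whole islets, fewer cells of a type and less RNA per cell cannot be told apart. The part of these cell types in the values below was not tested.

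Interferon response genes differed between the libraries in both directions. Of the 39 genes that passed, 10 (25.6%) were 2-fold or more apart in counts scaled for library size by TMM, against 13.2% of 14768 genes and 13.8% of the 12260 genes with counts in the same range. Usp18, Oasl1, Mx2 and Tgtp1 were higher in CAST, which is 10.3% of the list beside a background of 7.18% (7.37% in the count range). Irf7, Ifih1, Tgtp2, Gbp7, Rsad2 and Ifi44 were lower in CAST, which is 15.4% beside a background of 5.99% (6.42% in the count range). Tgtp2 and Ifi44 passed the count minimum only through their B6 counts and Oasl1 only through its CAST counts, and the Tgtp genes are near-identical copies of each other.

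Most of the list stood below equality in CAST. Its median log2 ratio was -0.28, from -5.89 for Tgtp2 to 1.79 for Mx2, while the median of all genes that passed was 0.02. A log2 ratio below 0 was found for 25 of 39 members (64.1%), against 48.4% of all genes and 48.7% of those in the count range. Added together, the 40 genes had 412.4 scaled CPM in CAST and 484.3 in B6, a log2 ratio of -0.23 with a 95% counting interval, the range that counting error alone allows, of -0.25 to -0.21. The counting interval excluded equality for 32 of 39 members (82.1%), against 78.7% of all genes and 77.3% in the count range, so at this depth counting error is small beside most differences and the missing replicates are the limit. Where the scaling was changed, 31 of the 39 genes kept their direction in all 4 scalings tried; Oas1b, Mx1, Iigp1 and Eif2ak2 fell below 0 by total counts and by TPM, and Irf1, Isg15, Bst2 and Xaf1 did so by TPM alone.

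**Figure D1:**
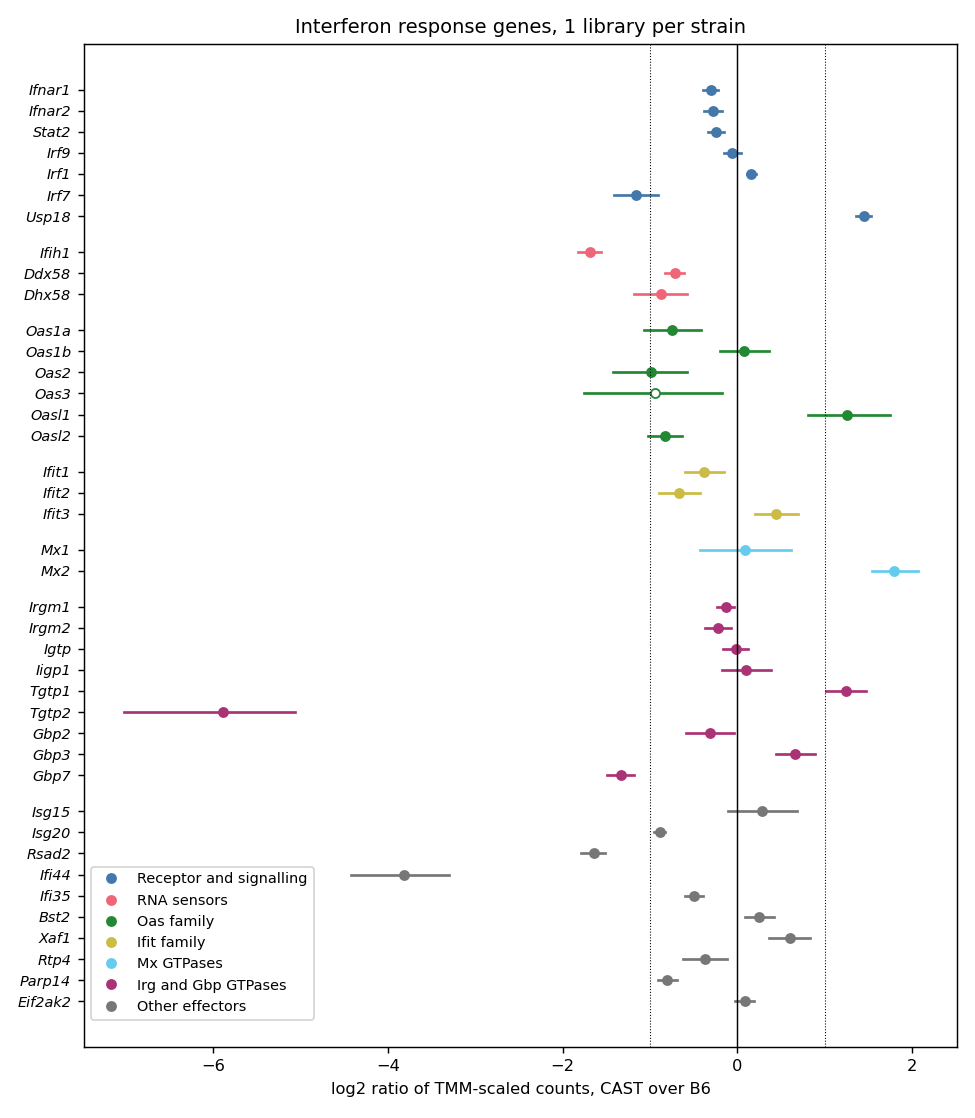
Log2 ratio of TMM-scaled counts of CAST over B6 (horizontal axis) for each of the 40 interferon response genes (vertical axis), coloured by role, with 95% counting intervals as lines, dotted lines at 2-fold, and an open circle for Oas3, which did not reach 100 counts. Tgtp2 at -5.89 and Ifi44 at -3.82 lie farthest to the left, and Mx2 at 1.79 and Usp18 at 1.45 farthest to the right.

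Levels per transcript length were a few TPM or less for most of these genes. In TPM the median was 1.93 in CAST and 3.12 in B6. Of the 40 genes, which include Oas3 with under 100 counts, 28 in CAST and 34 in B6 reached 1 TPM. Of all genes with 100 or more counts, 84.3% in CAST and 85.9% in B6 did, so in B6 the list lay near that share. Irf1, Isg20 and Usp18 led in CAST with 44.8, 32.9 and 27.3 TPM, while Isg20, Irf1 and Ifi35 led in B6 with 77.7, 52.1 and 22.7 TPM. Oas3 was lowest in both, at 0.0518 TPM in CAST and 0.127 TPM in B6. Usp18 ranked number 3 of the 40 in CAST and number 6 in B6, and Mx2 ranked number 14 in CAST and number 36 in B6, whereas Rsad2 ranked number 25 in CAST and number 12 in B6.

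**Figure D2:**
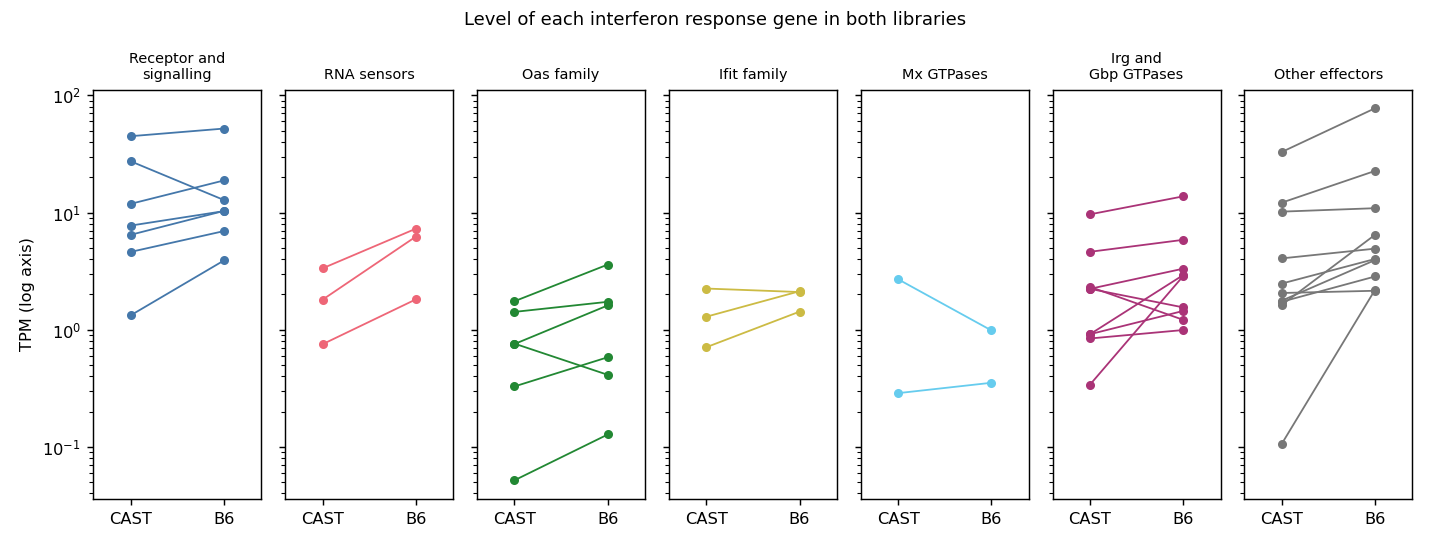
TPM (log axis) of each interferon response gene in the CAST and B6 libraries, 1 line per gene and 1 panel per role. All 3 RNA sensors slope towards higher levels in B6, Usp18 is the 1 line of the signalling panel that slopes the other way, and Mx2 stands at 2.69 TPM in CAST against 0.985 TPM in B6.

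The promoters show what these genes share in sequence. RefSeq windows of 300 bases (GRCm38.p6, 250 bases before to 50 after a start that RefSeq gives) were found for 31 of the 40 genes, 37 windows in all since Irf9, Irf1, Ifit2, Gbp3 and Isg20 had several, and a gene was counted where any of its windows held the letters. The RefSeq starts of Tgtp1 and Irgm2 lie well inside the spans that GENCODE gives these genes, so their windows are not at the outer start of the gene. Usp18, Mx1, Mx2, Rtp4, Parp14, Dhx58, Iigp1, Oas1b and Oas2 were not matched. The ISRE core, which is GAAA, any 2 bases and GAAA again (TTTC, any 2 bases and TTTC on the other strand), was found in 19 of the 31 genes (61.3%), against 3.99% of the 27025 genes in the table. The GAS core, TTCNNNGAA, which reads the same on both strands, was found in 14 of the 31 (45.2%), against 9.55% of genes. Both cores were found in 8 genes, 1 of which, Bst2, had them overlapping, and neither in Ifi44, Irf7, Irf9, Oasl1, Oasl2 and Xaf1. By role, all 8 Irg and Gbp genes with a window held an ISRE core, as did both RNA sensors, 2 of 3 Ifit genes, 2 of 4 Oas genes, 4 of 8 other effectors and 1 of 6 signalling genes.

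The sites below come from promoters of genes whose counts differed in opposite directions or by under 2-fold, and were picked with those ratios known. Their ISRE cores are alike because the core was the pattern searched for, and any part of it in the ratios was not tested. Each site is a 30-base stretch of the gene's own strand with the ISRE core in capitals. That of Ifih1 ends with its window after 28 bases.
Ifih1, chr2:62646206-62646233, minus strand: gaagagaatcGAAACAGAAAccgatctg
Rsad2, chr12:26456553-26456582, minus strand: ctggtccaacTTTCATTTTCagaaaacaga
Gbp7, chr3:142530273-142530302, plus strand: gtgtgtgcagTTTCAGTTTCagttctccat
Gbp3, chr3:142559989-142560018, plus strand: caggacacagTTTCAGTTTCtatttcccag
Tgtp1, chr11:48992304-48992333, minus strand: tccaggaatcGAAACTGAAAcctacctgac
Tgtp2, chr11:49064263-49064292, minus strand: tccaggaatcGAAACCGAAAcctactctga
Igtp, chr11:58199512-58199541, plus strand: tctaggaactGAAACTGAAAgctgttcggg
Irgm2, chr11:58214903-58214932, plus strand: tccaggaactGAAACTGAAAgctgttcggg
Ifit1, chr19:34640794-34640823, plus strand: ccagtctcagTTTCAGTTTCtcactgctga
Ifit3, chr19:34583397-34583426, plus strand: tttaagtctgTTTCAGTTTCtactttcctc
Isg15, chr4:156200871-156200900, minus strand: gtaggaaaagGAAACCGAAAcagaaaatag

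The core TTTCAGTTTC stands in Gbp7, Gbp3, Ifit1, Ifit3 and Stat2, whose log2 ratios were -1.33, 0.66, -0.38, 0.44 and -0.25. The same letters on the other strand, GAAACTGAAA, stand in Tgtp1, Igtp, Irgm2, Oas1a and Bst2, whose log2 ratios were 1.24, -0.02, -0.23, -0.74 and 0.25. Among genes with a window, the core was found in 1 of the 2 that were higher in CAST (Tgtp1), in 4 of the 6 that were lower in CAST (Gbp7, Ifih1, Rsad2 and Tgtp2) and in 13 of the 22 within 2-fold. The 18 passing genes with an ISRE core had a median log2 ratio of -0.24 and the 12 without one a median of -0.40. A match is a description of the reference letters and not evidence of binding, and these letters are those of B6.

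Of the 7 genes of receptor and signalling, 5 lay within 2-fold and 2 were 2-fold apart (28.6%, against 13.2% of all genes). The group median was -0.25. Added together, however, the 7 genes had 211.2 scaled CPM in CAST and 189.2 in B6, a log2 ratio of 0.16 (0.13 to 0.19). Ifnar1, a receptor chain, had 2423 counts in CAST and 2453 in B6 (6.45 TPM in CAST, 10.3 TPM in B6; log2 ratio -0.31). Ifnar2, the other chain, had 1566 counts in CAST and 1559 in B6, a log2 ratio of -0.28, and 25.3% of its 50-base words also occur in transcripts of Gm21970, so its counts are less certain. Both chains were thus slightly lower in CAST once depth was scaled. Stat2, which carries the signal to the nucleus, had 2000 counts in CAST and 1940 in B6 (log2 ratio -0.25), and Irf9, its DNA-binding partner, had 1906 in CAST and 1625 in B6, a log2 ratio of -0.06 whose interval of -0.16 to 0.04 spanned equality. Irf1, a transcription factor induced by interferon gamma, was the most abundant of the group at 44.8 TPM in CAST and 52.1 TPM in B6. It had 8123 counts in CAST and 5950 in B6, a log2 ratio of 0.16.

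Usp18 and Irf7 were the signalling genes that moved apart, in opposite directions. Usp18, on chromosome 6 (chr6:121245906-121270917), encodes the protease that removes Isg15 from proteins and that also binds Ifnar2 and damps the receptor. It had 4649 counts in CAST and 1397 in B6, 27.3 TPM in CAST against 12.8 TPM in B6, and was 2.72-fold higher in CAST (95% counting interval 2.57 to 2.89). Its 1 annotated transcript shares no 50-base word with another gene, and it was the only member that stayed 2-fold higher in CAST when TPM with 1 added was used (log2 ratio 1.04). Irf7, on chromosome 7 (chr7:141262706-141266481), encodes the factor that amplifies interferon production. It had 206 counts in CAST and 376 in B6, 1.33 TPM in CAST against 3.90 TPM in B6, and was 2.23-fold lower in CAST (1.88 to 2.66). Part of that difference lay in transcripts with a retained intron, such as Irf7-210, with 19 counts in CAST and 97 in B6 (log2 ratio -2.61). Of its protein-coding transcripts, Irf7-201 had 92 in CAST and 172 in B6 (-1.19). Irf7-202 had 48 in CAST and 35 in B6 (0.16), and Irf7-203 had 28 in CAST and 26 in B6 (-0.18). Irf7 and Tgtp1 (2.37-fold) are the genes just inside the 2-fold limit, and Oas2 (1.99-fold) and Isg20 (1.85-fold) those just outside it.

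All 3 cytoplasmic RNA sensors were lower in CAST, under each scaling tried, while 48.4% of all genes lay below 0 by TMM. The median of all genes was itself below 0 by total counts (-0.14) and by TPM with 1 added (-0.26). Together the 3 sensors had 20.1 scaled CPM in CAST and 44.2 in B6, a log2 ratio of -1.13 (-1.21 to -1.06). Ifih1, on chromosome 2 (chr2:62595798-62646255), encodes MDA5, which binds long double-stranded RNA. It had 671 counts in CAST and 1775 in B6, 1.80 TPM in CAST against 6.23 TPM in B6, and was 3.23-fold lower in CAST (2.96 to 3.54). Ddx58, which encodes RIG-I, a sensor of RNA ends, had 1160 counts in CAST and 1562 in B6 (log2 ratio -0.72, -0.83 to -0.61). Dhx58, which encodes LGP2, a regulator of the other sensors, had 157 counts in CAST and 236 in B6 (-0.88, -1.18 to -0.58). Only Ifih1 passed 2-fold (33.3% of the group, against 13.2% of all genes), although Dhx58 did so by total counts (-1.03).

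The size of the Ifih1 difference rested on 1 of its transcripts. Ifih1-201, of 5470 bases, had 188 counts in CAST and 1124 in B6, while Ifih1-202, of 3616 bases, had 444 in CAST and 548 in B6. The log2 ratio was -2.87 for Ifih1-201 and -0.59 for Ifih1-202. The longer transcript made up 19.2% of the gene's TPM in CAST and 51.7% in B6, and the shorter one 69.2% in CAST and 38.4% in B6.

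The Oas genes encode enzymes that make the second messenger of RNase L, and their inactive relatives. The group was low throughout, with TPM from 0.0518 to 1.75 in CAST and from 0.127 to 3.59 in B6, and its 5 passing genes had a median log2 ratio of -0.74. Oasl1, on chromosome 5 (chr5:114923240-114937915), encodes a protein that lacks the enzyme activity and is known in mice to restrain translation of Irf7. Of the 5 passing genes it was the only one 2-fold apart (20%, against 13.2% of all genes). It had 156 counts in CAST and 53 in B6 and was 2.39-fold higher in CAST (1.75 to 3.36). On 0.760 TPM in CAST and 0.412 TPM in B6 with 1 added, its log2 ratio was 0.32, so the call rests on the count scale. Its neighbour Oasl2 had 368 counts in CAST and 533 in B6, 1.77-fold lower in CAST (1.55 to 2.03). Oas1a had 137 counts in CAST and 188 in B6 (log2 ratio -0.74), and Oas2 had 76 counts in CAST and 124 in B6 (-0.99). Oas1b, whose B6 allele is truncated and annotated as a polymorphic pseudogene, had 238 counts in CAST and 184 in B6, a log2 ratio of 0.08 with an interval of -0.20 to 0.37.

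The Ifit genes, whose products bind foreign RNA and block its translation, all stayed within 2-fold. Ifit1 had 334 counts in CAST and 355 in B6 (log2 ratio -0.38, -0.60 to -0.16). Ifit2 had 266 counts in CAST and 345 in B6 (-0.66, -0.90 to -0.43). Ifit3 stood on the other side, with 376 counts in CAST and 226 in B6 (0.44, 0.20 to 0.69). They lie close together on chromosome 19, and their summed level was 9.88 scaled CPM in CAST and 11.4 in B6.

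The Mx genes encode dynamin-like GTPases that block viruses, Mx1 in the nucleus and Mx2 in the cytoplasm. Common laboratory strains carry inactivating mutations in both, and Mx2 is annotated as a polymorphic pseudogene in the reference. Mx2, on chromosome 16 (chr16:97535308-97560900), had 633 counts in CAST and 149 in B6, 2.69 TPM in CAST against 0.985 TPM in B6. It was 3.47-fold higher in CAST (2.90 to 4.18), which was the highest ratio of the list, and its log2 ratio on TPM with 1 added was 0.90. Mx1 had 74 counts in CAST and 57 in B6, a log2 ratio of 0.08 whose interval of -0.43 to 0.61 spanned equality. It stood at 0.287 TPM in CAST and 0.352 TPM in B6.

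The immunity-related GTPases (Irgm1, Irgm2, Igtp, Iigp1, Tgtp1 and Tgtp2) and the guanylate-binding proteins (Gbp2, Gbp3 and Gbp7) act on the vacuoles of intracellular microbes. All 9 passed the count minimum, and their median log2 ratio was -0.13. The regulatory Irgm1 had 1734 counts in CAST and 1556 in B6 (9.64 TPM in CAST, 13.7 TPM in B6; log2 ratio -0.13). Irgm2 had 758 counts in CAST and 726 in B6 (-0.23), and Igtp had 885 in CAST and 733 in B6 (-0.02, -0.16 to 0.13). Irgm2 and Igtp overlap on the same strand of chromosome 11, and 12.3% of the 50-base words of Igtp occur in Irgm2, so reads of the shared stretch are uncertain. Iigp1, an effector GTPase, had 245 counts in CAST and 187 in B6 (0.10, -0.18 to 0.38). These 4 genes differed little between the libraries.

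The Gbp genes, which lie close together on chromosome 3, went in different directions. Gbp7 (chr3:142530342-142550149) had 501 counts in CAST and 1034 in B6, 0.914 TPM in CAST against 2.93 TPM in B6, and was 2.52-fold lower in CAST (2.26 to 2.81). Gbp3 (chr3:142560026-142573209) had 496 counts in CAST and 256 in B6, 2.23 TPM in CAST against 1.55 TPM in B6, a log2 ratio of 0.66 (0.44 to 0.89). Gbp2 had 224 counts in CAST and 228 in B6 (log2 ratio -0.31, -0.59 to -0.04). The intervals of the 3 genes did not overlap, but they hold counting error alone. At this depth the interval excluded equality for 78.7% of all genes. Of the 50-base words, 5.19% of those of Gbp7 and 4.79% of those of Gbp3 occur in another gene.

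Tgtp1 and Tgtp2 encode T-cell-specific GTPases and lie in tandem on chromosome 11. Tgtp1 (chr11:48985327-48994172) had 623 counts in CAST and 215 in B6, 2.37-fold higher in CAST (2.03 to 2.78). Tgtp2 (chr11:49057194-49064206) had 10 counts in CAST and 508 in B6, 59.2-fold lower in CAST (33.5 to 130). Their main transcripts are 99.75% identical over 2810 bases, and 91.4% of the 50-base words of Tgtp1 and 90.6% of those of Tgtp2 occur in another gene, so the division of reads between them is uncertain. Summed, the pair had 633 counts in CAST and 723 in B6, a log2 ratio of -0.48 (-0.64 to -0.32), which is within 2-fold and on the other side of 0 from Tgtp1. Tgtp1 took 98.4% of the pair's counts in CAST and 29.7% in B6.

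The promoters of this pair are printed whole because, unlike the transcripts, they can be told apart: 80.5% of aligned bases are identical, and both carry 1 ISRE core, in capitals, and 1 GAS core.
Tgtp1, chr11:48992197-48992496, minus strand: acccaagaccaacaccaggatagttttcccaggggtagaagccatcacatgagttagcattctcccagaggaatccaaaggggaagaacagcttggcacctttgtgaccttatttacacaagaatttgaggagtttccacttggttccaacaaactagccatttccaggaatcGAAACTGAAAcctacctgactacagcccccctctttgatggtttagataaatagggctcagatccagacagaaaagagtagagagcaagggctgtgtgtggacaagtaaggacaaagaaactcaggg
Tgtp2, chr11:49064163-49064462, minus strand: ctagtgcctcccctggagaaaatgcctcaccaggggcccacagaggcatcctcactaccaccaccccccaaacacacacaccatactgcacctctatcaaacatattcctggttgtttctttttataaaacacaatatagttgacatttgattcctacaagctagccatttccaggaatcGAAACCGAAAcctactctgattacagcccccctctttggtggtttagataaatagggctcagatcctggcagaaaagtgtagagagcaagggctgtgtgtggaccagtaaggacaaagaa

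Oas1a, Ifit3 and Ifi35 also have near-identical stretches elsewhere. Oas1a is 97.53% identical to Oas1g over 1860 bases, Oas1g had 48 counts in CAST and 116 in B6, and the summed pair had 185 in CAST and 304 in B6, 2.01-fold lower in CAST (log2 interval -1.28 to -0.74). Ifit3 is 97.88% identical to Ifit3b over 1700 bases, Ifit3b had 133 counts in CAST and 122 in B6, and the summed pair had 509 in CAST and 348 in B6, a log2 ratio of 0.26 (0.06 to 0.46). Ifi35 is 99.58% identical over 237 bases to Gm11626, on the opposite strand, which had 2 counts in CAST and 3 in B6. The direction of Oas1a and of Ifit3 was the same alone and summed. With Tgtp1, Tgtp2, Oas1a and Ifit3 set aside, 8 of 35 passing genes (22.9%) were 2-fold apart and the median log2 ratio was -0.28.

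**Figure D3:**
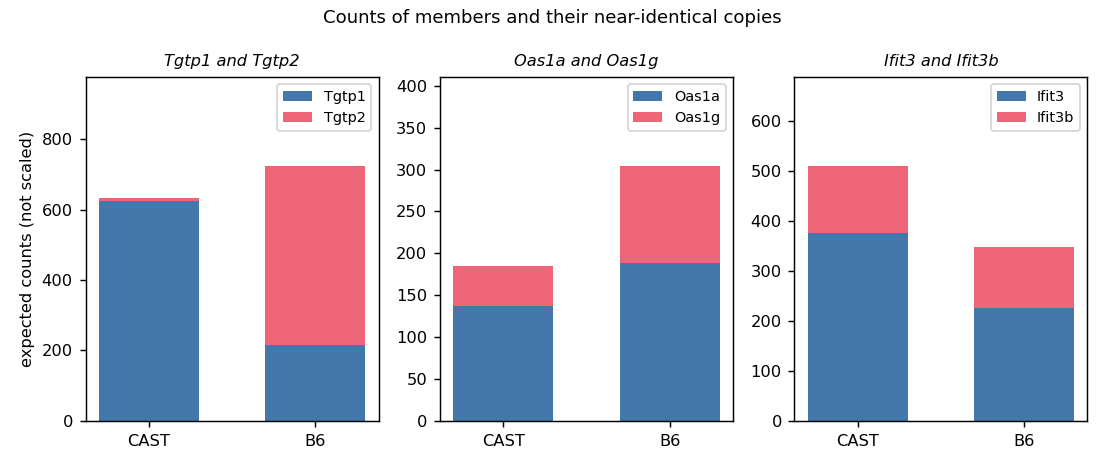
Expected counts (not scaled for depth) of Tgtp1, Oas1a and Ifit3 with their near-identical copies stacked on top, in the CAST and B6 libraries. The Tgtp pair has 633 counts in CAST and 723 in B6 in all, while Tgtp2 alone has 10 counts in CAST and 508 in B6.

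Of the 10 other effectors, 6 lay below 0 (60%, against 48.4% of all genes) and 4 above. The 10 genes together had 98.5 scaled CPM in CAST and 155.8 in B6, a log2 ratio of -0.66 (-0.70 to -0.62), and 2 of them (20%) passed 2-fold, against 13.2% of all genes. Rsad2, on chromosome 12 (chr12:26442746-26456452), encodes viperin, an enzyme that makes a chain-terminating nucleotide. It had 605 counts in CAST and 1551 in B6, 1.63 TPM in CAST against 6.46 TPM in B6, and was 3.13-fold lower in CAST (2.85 to 3.45). Ifi44, on chromosome 3 (chr3:151730922-151749960), a cytoplasmic protein strongly induced by interferon, had 30 counts in CAST and 351 in B6, 0.106 TPM in CAST against 2.19 TPM in B6, and was 14.1-fold lower in CAST (9.84 to 21.5). Neither Rsad2 nor Ifi44 shares a 50-base word with another gene. Ifi44 had the lowest level of the effectors in CAST and one close to that of Isg15 in B6.

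Isg20, an RNA exonuclease, contributed most to the lower sum. It had 3172 counts in CAST and 4804 in B6, 32.9 TPM in CAST against 77.7 TPM in B6, and was 1.85-fold lower in CAST (1.77 to 1.94). It passed 2-fold by total counts (-1.04) and by TPM with 1 added (-1.22). Parp14, an ADP-ribosyltransferase, had 1295 counts in CAST and 1845 in B6 (log2 ratio -0.80). Ifi35, a partner of the Nmi protein, had 1508 in CAST and 1741 in B6 (-0.50), and it overlaps Gm11626 on the opposite strand, whose reads cannot be told apart without a stated strand setting. Rtp4, a chaperone of membrane receptors, had 260 in CAST and 275 in B6 (-0.37).

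A further 4 effectors were at or above 0 on the count scale. Bst2, or tetherin, which holds budding viruses at the cell surface, had 701 counts in CAST and 482 in B6 (10.2 TPM in CAST, 10.9 TPM in B6; log2 ratio 0.25, and -0.09 by TPM with 1 added). Isg15, the ubiquitin-like protein that Usp18 removes, had 140 counts in CAST and 94 in B6, a log2 ratio of 0.28 with an interval of -0.10 to 0.68. Eif2ak2, or PKR, the kinase that halts translation on double-stranded RNA, had 1588 counts in CAST and 1224 in B6 (0.09, -0.02 to 0.20). Xaf1, which promotes cell death, had 437 counts in CAST and 236 in B6 (0.60, 0.37 to 0.83), but its TPM was 2.47 in CAST and 4.01 in B6. Count and TPM thus disagree in direction for Xaf1, whose reads lay on transcripts of different length in the libraries.

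Transcript composition differed for some of these genes. Of the 31 passing members with several annotated transcripts, 26 (83.9%) had the same most abundant transcript in both libraries, compared with 9005 of 9944 genes at large (90.6%). Ifih1, Oas2, Mx1, Tgtp2 and Xaf1 did not. In CAST the most abundant transcript of Oas2 had 11 counts and that of Tgtp2 had 10, and in B6 that of Mx1 had 22. For Oas2, Tgtp2 and Mx1 the change therefore rests on few counts. The genes at large were not matched to the members for counts beyond the minimum of 100. Xaf1-204, of 2597 bases, had 375 counts in CAST and 75 in B6 and made up 59.8% of the gene's TPM in CAST and 11.5% in B6, while Xaf1-202, of 651 bases, had 33 counts in CAST and 77 in B6. Transcripts of Mx1 annotated for nonsense-mediated decay made up 77.4% of its TPM in CAST and 48.3% in B6, on few counts. The full-length Tgtp2-201 had 0 counts in CAST and 508 in B6. Against the floor of 3 counts per library, that is at least 207-fold lower in CAST by counting alone. The division of reads with the near-identical Tgtp1 is uncertain, and the summed pair was within 2-fold (log2 ratio -0.48).

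Several further transcripts had counts in 1 library alone or changed share. Stat2-202 had 266 counts in CAST and 0 in B6, Oasl1-201 had 61 in CAST and 0 in B6, and Gbp3-201 had 125 in CAST and 0 in B6. In the other direction, Gbp7-201 had 0 counts in CAST and 38 in B6, Irf7-205 had 0 in CAST and 10 in B6, and Ifi44-204 had 0 in CAST and 9 in B6. The transcripts named here for CAST alone are close in length to the main transcripts of their genes. Stat2-202 has 4397 bases and Stat2-201 has 4394, and Gbp3-201 has 2681 and Gbp3-202 has 2682. Oasl1-201 has 2125 bases and Oasl1-202 has 2181. Transcripts of Irf7 that code for protein made up 71.6% of its TPM in CAST and 50.1% in B6, and those with a retained intron 28.4% in CAST and 47.9% in B6. Igtp-202 had 107 counts in CAST and 15 in B6, and Irgm2-201 had 76 in CAST and 204 in B6. RSEM assigns reads to transcripts by fit to the reference sequence, CAST reads carry strain variants against it, and the part of those variants in these assignments was not tested.

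**Figure D4:**
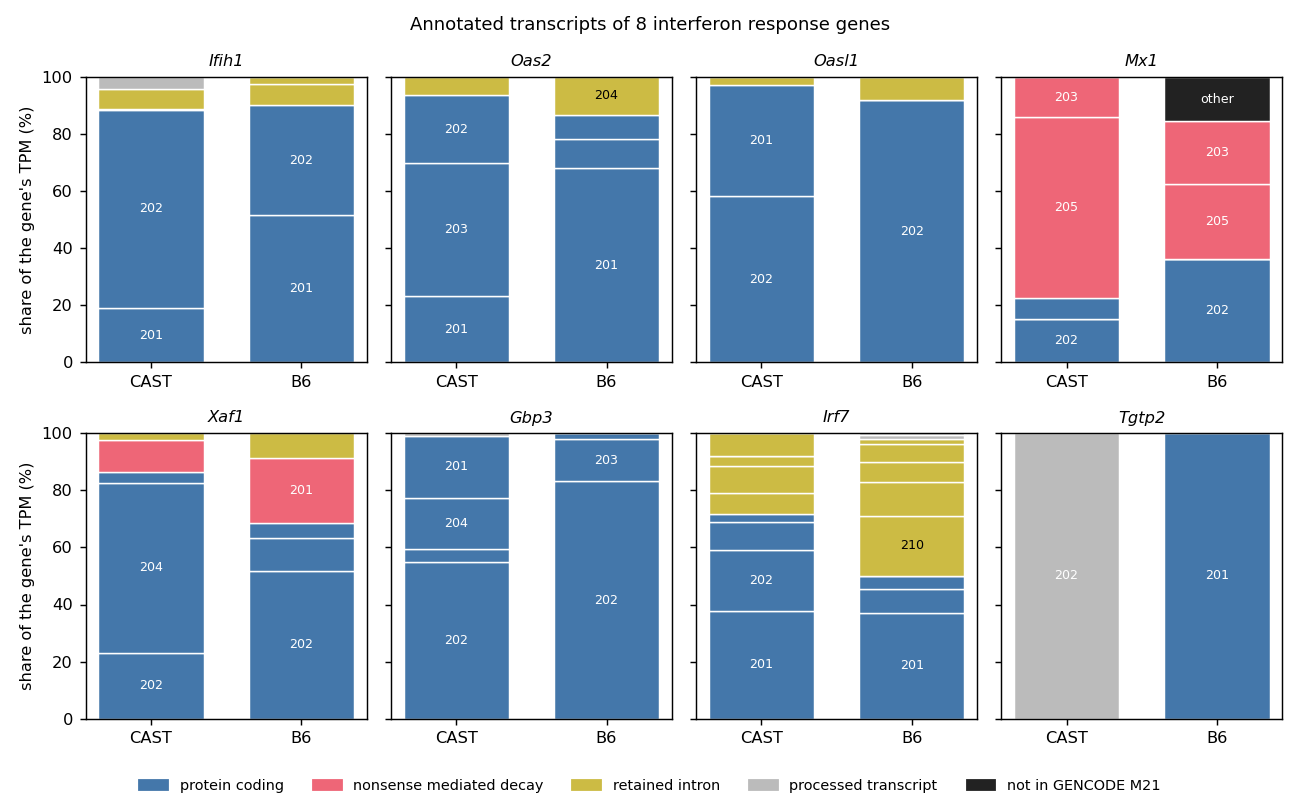
Share of each gene's TPM (%) held by its annotated transcripts in the CAST and B6 libraries, for 8 genes chosen after their values were seen, coloured by transcript type and numbered by transcript name. Ifih1-201 holds 19.2% in CAST and 51.7% in B6, and Xaf1-204 holds 59.8% in CAST and 11.5% in B6.

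Other genes of the pathway, from lists of ligands, kinases, sensors and further interferon-stimulated genes, were measured in the same libraries. Of 63 further genes, 54 passed the count minimum, 6 (11.1%) were 2-fold apart, against 13.2% of all genes, and their median log2 ratio was -0.23. The 6 interferon genes on these lists had few or no counts, with 22 counts in CAST and 33 in B6 for Ifnb1, 1 in CAST and 3 in B6 for Ifng, 1 in CAST and 0 in B6 for Ifnk, and 0 in both libraries for Ifne, Ifnl2 and Ifnl3. The kinases were split, since Jak1 had 20074 counts in CAST and 15345 in B6 (log2 ratio 0.10) and Tyk2 had 1985 in CAST and 2534 in B6 (-0.64). Of the adaptors, Mavs, which relays the signal of Ifih1 and Ddx58, had 1470 counts in CAST and 1617 in B6 (-0.43), and Tmem173, or Sting, had 163 in CAST and 90 in B6 (0.56).

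Among the genes of nucleic acid sensing and interferon induction, 2 of 13 that passed were 2-fold or more lower in CAST and none 2-fold higher. That is 15.4% 2-fold apart, against 13.2% of all genes. Of the 13, 9 lay below 0 (69.2%, against 48.4% of all genes) and 4 above. Tlr3, the endosomal sensor of double-stranded RNA, had 314 counts in CAST and 635 in B6 (log2 ratio -1.30, -1.50 to -1.11). Ikbke, a kinase that activates Irf3 and Irf7, had 952 in CAST and 1589 in B6 (-1.03, -1.15 to -0.91). Of 27 other interferon-stimulated genes that passed, 2 were 2-fold or more higher in CAST and 2 lower (14.8% in all, against 13.2% of all genes). In direction, 10 lay above 0 and 17 below (63.0%, against 48.4% of all genes). Ifi27l2a had 109 counts in CAST and 30 in B6 (1.56), and the chemokine Cxcl10 had 725 in CAST and 260 in B6 (1.19). Ddx60, a helicase that aids RIG-I signalling, had 224 counts in CAST and 516 in B6 (-1.49), and Oas1g, the copy of Oas1a, had a log2 ratio of -1.55. Ifi27l2a passed the count minimum only through its CAST counts. Oas1g passed only through its B6 counts, and its division of reads with Oas1a is uncertain.

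**Figure D5:**
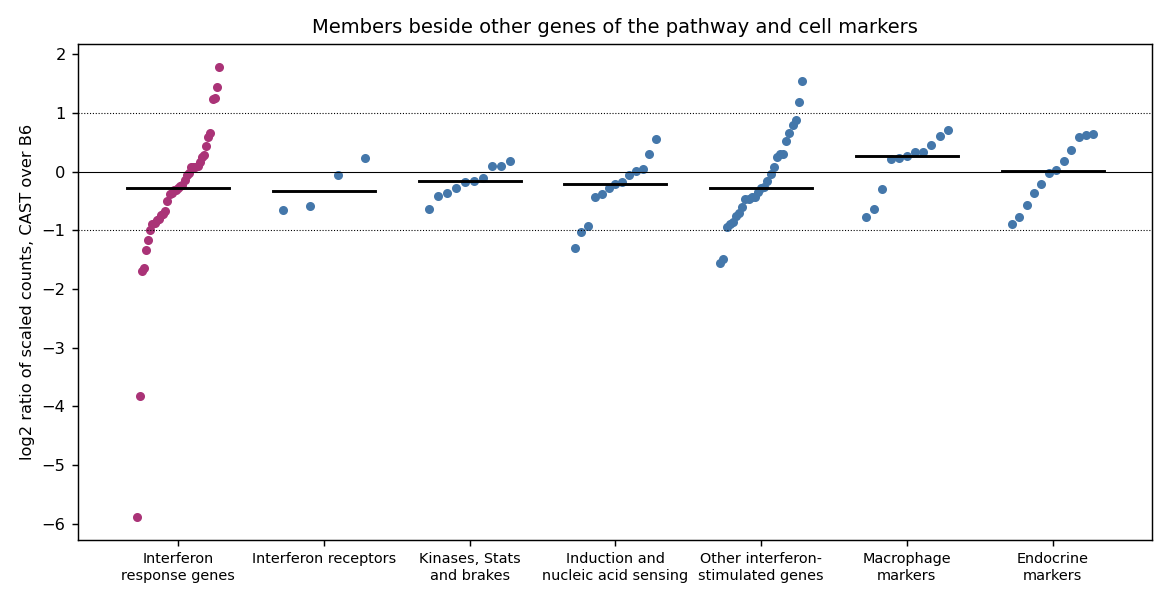
Log2 ratio of scaled counts of CAST over B6 (vertical axis) for each gene with 100 or more counts, in the interferon response genes, 4 lists of other genes of the pathway, and macrophage and endocrine markers (horizontal axis), with a bar at each median and dotted lines at 2-fold. The median is -0.28 for the interferon response genes, -0.23 over the other pathway genes, 0.27 for macrophage markers and 0.01 for endocrine markers.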

How the data were processed

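Expected counts and fractions per Ensembl transcript were made by the authors with RSEM on GRCm38, per the submitters' processing notes. The aligner, strand setting and annotation are, however, not given in the sources used here. The deposited fraction, which sums to 1 per library, was rescaled to TPM. These expected counts were added up by gene, rounded and scaled by TMM (edgeR 4.0.16, R 4.3.3; factors 0.947 for CAST and 1.056 for B6). Symbols, types and positions came from GENCODE M21 (GRCm38). The log2 ratio is CAST over B6 with 0.5 added. A gene was called at 2-fold or more with 100 or more counts over both libraries. The 95% interval (exact Clopper-Pearson, of the CAST share of counts) and the floor (3 counts in a library) show counting error alone, because reads without molecular tags can copy 1 molecule. Calls and intervals were tried on simulated counts with counting error alone, without TMM scaling or reads shared between genes. Intervals there held the set fold for 88% (fold 0.2) to 100% (fold 5) of genes. Errors of read assignment are not covered by that trial. With 1 library per strain no p-value was computed. Near-identical copies (minimap2 2.31) were transcripts with 95% identity or more, aligned across 200 bases or more and 50% or more of the shorter one. The members and lists were chosen with earlier results of these data known. Named genes were all 40 members, their copies, and, of the other pathway genes, those called plus Jak1, Tyk2, Mavs, Tmem173, the interferons and 1 gene that is not reported here; values of single transcripts were chosen after they were seen. The marker lists were those of endocrine, acinar, duct, macrophage, lymphocyte, plasmacytoid dendritic, endothelial and fibroblast cells; duct, plasmacytoid dendritic and endothelial markers that passed had median log2 ratios of 0.48, 0.28 and 0.21. Alternatives were other scalings (DESeq2 1.42.0 size factors, total counts, TPM), count minimums, added counts, thinning, summed copies and 1 transcript per gene.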

Additional observations from a re-analysis of the deposited data

How the results depend on the processing

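No paired analysis was possible because each strain had 1 library, and for the same reason no library could be left out. Genes called higher in CAST numbered 4 and genes called lower in CAST 6 with DESeq2 size factors, count minimums of 20 and 1, 5 counts added and CAST thinned to the B6 total, with medians from -0.29 to -0.27. Total counts gave 4 higher and 9 lower, with Dhx58, Oas2 and Isg20 added, and a median of -0.44, where the median of all genes was -0.14. TPM with 1 added gave 1 higher and 7 lower, a median of -0.47 against -0.26 over all genes, and no call for Oasl1 (0.32), Mx2 (0.90) and Tgtp1 (0.58); the split of calls over all genes was 463 higher and 737 lower there, 926 and 1173 by total counts, and 1060 and 885 by TMM. With copies summed, 3 were higher and 6 lower (median -0.31), Tgtp1 changed sign to -0.48, Tgtp2 was not called (-0.48) and Oas1a was (2.01-fold lower). With the most abundant transcript alone, 3 were higher and 7 lower (median -0.34), Ifih1 (-0.59) and Oasl1 (0.59) were not called and Oas2 was (-2.01), while Xaf1 had -1.50 and Irgm2 0.10. The causes of the scaling shifts were not tested. Depth is not the limit for most members, whose intervals are narrow; counts under 100 stand in CAST for Oas2, Tgtp2 and Ifi44, in B6 for Oasl1 and Isg15, and in both libraries for Oas3 and Mx1.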
